A study of Mus musculus with 6 samples.

Results

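The genes examined here encode the nuclear-encoded part of the mitochondrial respiratory chain, measured as chromatin accessibility at the regions assigned to them. Members were chosen by name: every accessible region (peak) that the deposited annotation assigns to a protein-coding gene whose symbol begins with Nduf, Uqcr, Cox4 to Cox8 or Atp5, or is Sdha, Sdhb, Sdhc or Sdhd. The rule used no measured value and found 114 of 75412 peaks, which belong to 82 gene identifiers. Of these, 52 peaks fall to complex I, 4 to complex II, 9 to complex III, 22 to complex IV and 27 to complex V. The gene names Ndufa4 and Ndufa4l2 were counted with complex I by their symbol, although Ndufa4 is now regarded as a complex IV subunit.

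Open chromatin was profiled by ATAC-seq, a method that tags accessible DNA with the transposase Tn5, in muscle stem cells (MuSCs) taken directly from C57BL/6 mice, with 3 control and 3 Taf4a sKO libraries. Taf4a encodes a subunit of the general transcription factor TFIID. In Taf4a sKO mice, both Taf4a alleles carry loxP sites around exons 11 and 12 (Taf4a flox/flox), and a tamoxifen-inducible Cre recombinase expressed from Pax7 (Pax7CreERT) removes these exons, so that recombination is limited to cells that express Pax7. The control libraries are titled WT and carry the genotype label Control; the study describes its controls as littermates that carry the floxed alleles with or without the Cre driver. The animals were females and males of 8 to 20 weeks, and MuSCs were sorted as integrin-alpha7-positive cells or by a Pax7 reporter after removal of SCA1-, CD45- and CD31-positive cells. The study checked the sorted cells again and reports that their purity was not complete. Which Cre genotype each control library had, and whether controls received tamoxifen, is not given in the sources used here. The labels do not name the animals or pools behind each library, so p-values measure the spread between these libraries only. The values summed over all peaks were 37722015, 35226223 and 42803315 for controls, against 44311913, 41661725 and 41948821 for Taf4a sKO. All 6 muscle stem cell markers examined (Pax7, Myf5, Cdh15, Itga7, Calcr and Vcam1) had a peak within 1000 bp of their start site. Of the markers of other cells, Ptprc, Itgam, Cd3e, Ly6a and Tie1 had no peak, whereas Csf1r, Pdgfra, Dcn, Col1a1, Kdr, Pecam1 and Cdh5 had at least 1.

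The respiratory chain passes electrons from NADH through complex I, or from succinate through complex II, to complex III and on to complex IV, which reduces oxygen. Complexes I, III and IV pump protons, and the returning protons drive complex V, the ATP synthase. All subunits examined here are encoded in the nucleus, while a few core subunits come from the mitochondrial genome, whose reads had been removed from these data. Quiescent MuSCs contain few mitochondria and raise respiration when they become activated, and their mature progeny, the muscle fibres, use muscle-specific forms of several complex IV subunits.

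Complex IV (cytochrome c oxidase) exists with alternative subunits, and the promoters of 4 of these alternative forms had larger log2 changes than any other member promoter, with the deposited scaling and with TMM factors, another scaling of the libraries. Cox7a1 and Cox8b are the heart and skeletal muscle forms, Cox7a2 and Cox8a the widely expressed ones; Cox6b2 is the testis form beside the general Cox6b1. For these 3 pairs, the RefSeq promoter windows of assembly GRCm38.p6, from 250 bases before to 50 bases after the start site, are printed 5′ to 3′ along the gene so that each tissue form can be read beside its counterpart. Capitals mark matches, on either strand, to CCAAT (the NF-Y motif), to the Sp motif GGGCGG, to the ETS motif CCGGAAG and to the TATA box motif TATAAA, so that a match on the other strand reads as the reverse complement. The windows lie at chr7:30183921-30184220 (plus strand) for Cox7a1, chr9:79759804-79760103 (minus) for Cox7a2, chr7:140900397-140900696 (minus) for Cox8b, chr19:7217567-7217866 (minus) for Cox8a, chr7:4753045-4753344 (minus) for Cox6b2 and chr7:30626065-30626364 (minus) for Cox6b1.
Cox7a1: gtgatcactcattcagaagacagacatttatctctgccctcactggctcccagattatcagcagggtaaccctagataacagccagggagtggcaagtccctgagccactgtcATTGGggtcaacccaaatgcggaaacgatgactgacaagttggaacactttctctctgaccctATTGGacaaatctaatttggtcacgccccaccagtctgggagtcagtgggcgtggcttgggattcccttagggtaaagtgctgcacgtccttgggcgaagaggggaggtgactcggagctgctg
Cox7a2: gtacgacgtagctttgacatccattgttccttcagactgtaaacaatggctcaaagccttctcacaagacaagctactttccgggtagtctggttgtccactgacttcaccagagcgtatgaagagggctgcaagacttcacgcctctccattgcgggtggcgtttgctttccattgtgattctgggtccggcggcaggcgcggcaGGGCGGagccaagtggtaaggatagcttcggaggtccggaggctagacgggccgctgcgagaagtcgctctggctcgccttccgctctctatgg
Cox8b: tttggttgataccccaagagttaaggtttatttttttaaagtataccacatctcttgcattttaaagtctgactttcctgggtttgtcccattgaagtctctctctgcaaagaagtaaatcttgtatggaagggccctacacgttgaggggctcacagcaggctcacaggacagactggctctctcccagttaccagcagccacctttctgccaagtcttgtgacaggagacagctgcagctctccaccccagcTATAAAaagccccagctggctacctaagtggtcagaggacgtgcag
Cox8a: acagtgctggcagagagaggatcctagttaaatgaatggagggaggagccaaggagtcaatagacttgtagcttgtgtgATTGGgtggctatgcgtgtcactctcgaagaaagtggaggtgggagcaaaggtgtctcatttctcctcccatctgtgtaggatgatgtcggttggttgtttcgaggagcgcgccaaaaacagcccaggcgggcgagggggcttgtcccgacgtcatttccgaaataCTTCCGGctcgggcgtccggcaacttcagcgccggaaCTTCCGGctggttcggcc
Cox6b2: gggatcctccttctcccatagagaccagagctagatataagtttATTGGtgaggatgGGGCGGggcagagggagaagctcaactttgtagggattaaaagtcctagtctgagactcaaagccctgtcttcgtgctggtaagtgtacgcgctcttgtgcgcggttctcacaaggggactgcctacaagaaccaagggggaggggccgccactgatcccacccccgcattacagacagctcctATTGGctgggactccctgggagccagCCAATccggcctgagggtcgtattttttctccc
Cox6b1: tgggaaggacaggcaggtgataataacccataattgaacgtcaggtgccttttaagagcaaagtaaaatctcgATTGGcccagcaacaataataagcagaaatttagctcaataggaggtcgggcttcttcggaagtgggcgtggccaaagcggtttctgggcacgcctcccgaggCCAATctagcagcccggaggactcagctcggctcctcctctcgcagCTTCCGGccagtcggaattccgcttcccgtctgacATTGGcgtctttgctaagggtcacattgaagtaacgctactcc
The Cox7a1 window held CCAAT at 2 positions and no GGGCGG, whereas that of Cox7a2 held GGGCGG at 1 position and no CCAAT. Cox8b held a TATAAA that begins 4 bases after the annotated start and none of the other motifs. Cox8a held 2 ETS matches and 1 CCAAT. Cox6b2 and Cox6b1 each held 3 CCAAT matches, with GGGCGG in addition in Cox6b2 and an ETS match in Cox6b1. These matches describe the letters of the windows and do not show that a factor binds there.

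Accessibility at the Cox7a1 promoter rose in Taf4a sKO MuSCs. Its peak (chr7:30183825-30184512) had values of 377, 361 and 457 in controls against 670, 630 and 636 in Taf4a sKO. Every Taf4a sKO library lay above every control library, with a log2 change of 0.70 (standard error, SE, 0.13; adjusted p = 1.2e-04 from limma). A second Cox7a1 peak, 2536 bp from the start site, had 176, 173 and 233 against 129, 173 and 157, with overlap (log2 change -0.34, adjusted p = 0.12 from limma), and was called lower with TMM factors (log2 change -0.45, adjusted p = 0.025 from limma). At the promoter of Cox7a2, the widely expressed form, the values were 1710, 1539 and 1764 against 1776, 1746 and 1790. These groups overlapped, with a log2 change of 0.09 that did not pass (adjusted p = 0.53 from limma).

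The promoter of Cox8b, the other muscle form with a peak, moved the opposite way. Its peak (chr7:140900204-140900541) fell from 75, 97 and 84 to 57, 32 and 37, a log2 change of -1.04 (SE 0.24, adjusted p = 0.0012 from limma). The groups did not overlap, although Taf4a sKO replicate 1 lay closer to the control libraries than the other two. A further Cox8b peak 2991 bp from the start site fell as well, from 161, 186 and 209 to 139, 148 and 120 (log2 change -0.44; adjusted p = 0.033 from limma), a call that was lost when any 1 of 4 libraries was left out, with an adjusted p of up to 0.16. The remaining Cox8b peak, at 8270 bp, had 293, 278 and 362 against 362, 307 and 352, with overlap (log2 change 0.14, adjusted p = 0.48 from limma). At Cox8a the promoter values were 1778, 1607 and 1977 against 2044, 1981 and 2058. All Taf4a sKO values of Cox8a were above the control values, but the log2 change of 0.19 did not pass the test (adjusted p = 0.16 from limma), except without control replicate 3 (log2 change 0.26, adjusted p = 0.0084 from limma). Another muscle form, Cox6a2, had no peak, and its counterpart Cox6a1 had promoter values of 1088, 1059 and 1276 against 1085, 1121 and 1080 (log2 change -0.05, adjusted p = 0.72 from limma), which was called lower with TMM factors (log2 change -0.17, adjusted p = 0.037 from limma).

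Cox6b2 and Cox4i2, tissue forms of other complex IV subunits, also moved in opposite directions. The Cox6b2 promoter peak (chr7:4751887-4753394) fell from 924, 775 and 855 to 493, 482 and 453. All control libraries were far above all Taf4a sKO libraries, and the log2 change was -0.83 (SE 0.12, adjusted p = 6.7e-06 from limma). At Cox6b1 the values of 631, 571 and 645 against 547, 617 and 614 overlapped (log2 change -0.06, adjusted p = 0.74 from limma). Cox4i2 encodes a form of subunit 4 found mainly in lung and induced at low oxygen. Its promoter peak (chr2:152753958-152754563) rose from 56, 80 and 97 to 147, 110 and 126, a log2 change of 0.73 (SE 0.21, adjusted p = 0.0062 from limma), without overlap between the genotypes. At Cox4i1, the general form, whose peak also holds the start of Emc8, the values of 1644, 1569 and 1904 against 1871, 1802 and 1817 overlapped (log2 change 0.11, adjusted p = 0.44 from limma), and passed without control replicate 3 (log2 change 0.19, adjusted p = 0.045 from limma). The isoforms Cox7b2 and Cox8c had no peak.

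**Figure D1:**
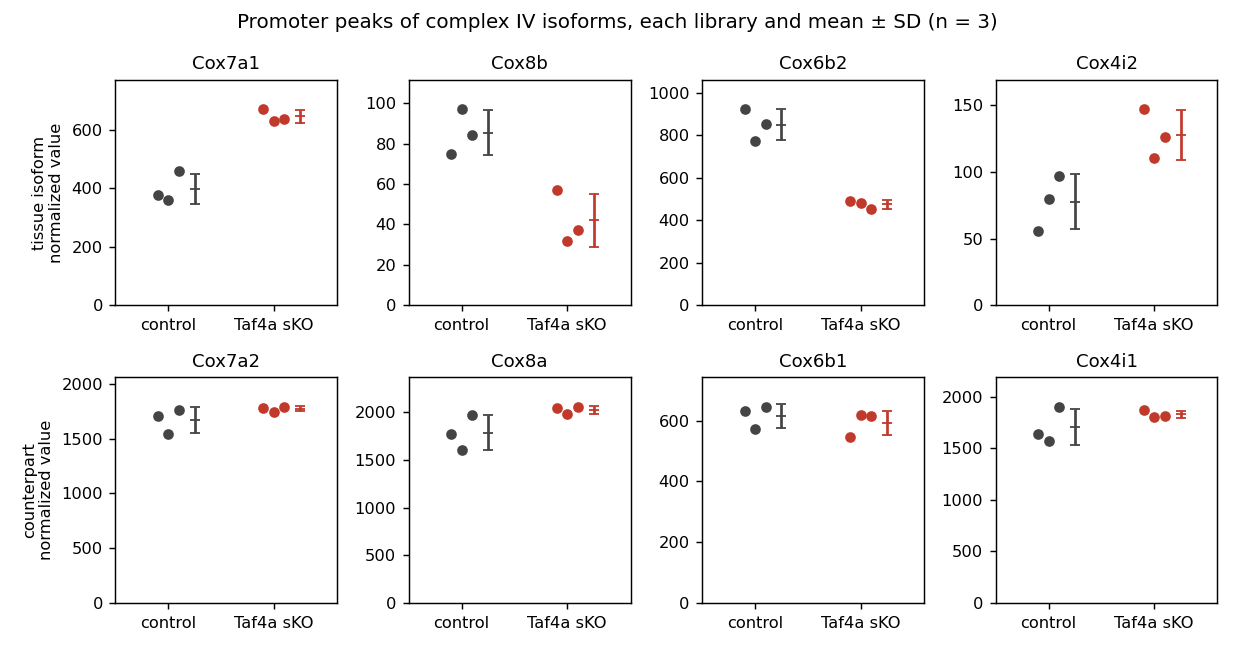
Normalized value (y axis, from 0) of the promoter peaks of 4 tissue forms of complex IV subunits (top) and their counterparts (bottom) in each control (grey) and Taf4a sKO (red) library, with mean ± SD (n = 3). Cox7a1 and Cox4i2 were higher and Cox8b and Cox6b2 lower in every Taf4a sKO library than in every control library, whereas of the counterparts only Cox8a was separated, without passing the test.

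Because both members of a pair were measured in the same library, their ratio does not depend on the scaling between libraries. The ratio of Cox7a1 to Cox7a2 was 0.220, 0.235 and 0.259 in controls against 0.377, 0.361 and 0.355 in Taf4a sKO, a difference of 0.62 on the log2 scale (SE 0.073). For Cox4i2 to Cox4i1 the log2 ratio was higher by 0.64 (SE 0.22) in Taf4a sKO. It was lower by a difference of -1.25 (SE 0.29) for Cox8b to Cox8a and of -0.78 (SE 0.096) for Cox6b2 to Cox6b1. None of the 4 ratios overlapped between genotypes, and each gave p = 0.1 in a two-sided exact permutation test, the smallest that 3 libraries against 3 allow. All 4 tissue-form promoters kept their direction and stayed past the threshold under each of 13 alternative fits.

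Markers of other cell types were measured beside these isoforms, since Cox7a1 and Cox8b are genes of mature fibres. The counts that follow stand beside 28% of all peaks higher and 13.9% lower. Of 24 peaks at the 6 muscle stem cell genes, 9 were higher and 3 lower, and their sums of 22466, 18276 and 22346 against 24177, 22028 and 22822 overlapped. The promoter peak of Pax7, the transcription factor that marks these cells, fell from 4533, 3128 and 3729 to 3084, 2923 and 3026 (log2 change -0.32, adjusted p = 0.030 from limma), while 4 of the other 6 Pax7 peaks were called higher and none lower. The promoter peak of Vcam1, a cell adhesion receptor, rose from 572, 534 and 540 to 749, 697 and 658 (log2 change 0.35, adjusted p = 0.018 from limma). Of 14 peaks at 8 muscle fibre genes, none was called higher and 4 were called lower; the most accessible gene was Mylpf, which encodes a fast myosin light chain. The summed values of these 14 peaks were 10370, 9316 and 12047 in controls against 11152, 9647 and 9645 in Taf4a sKO, and overlapped; Acta1, Myh2, Tnni2 and Tnnt3 had no promoter peak. Of 11 peaks at the fibro-adipogenic genes Pdgfra, Dcn and Col1a1, 5 were called higher and 1 lower. Their sums rose from 6317, 5548 and 6844 to 8976, 8168 and 7955, with Col1a1, the gene of a fibrillar collagen chain, the highest, and Ly6a without a peak. The single peak at a haematopoietic marker, near Csf1r, rose from 192, 249 and 297 to 461, 395 and 507. The summed endothelial values were 305, 279 and 340 against 362, 334 and 298. Whether these moves have a part in the isoform results was not tested. In bulk samples a change in the mix of cells and a change within each cell cannot be told apart.

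At the promoters of the respiratory chain as a whole, little moved. Of the 74 promoter peaks (centre within 1000 bp of the start site), 2 were higher and 3 lower in Taf4a sKO at an adjusted p under 0.05. Among all 12049 protein-coding promoter peaks tested, 10% were higher and 5.67% lower by the same limma fit. In 11 member promoters every Taf4a sKO value lay above every control value and in 8 below, where 18.8% and 10.9% of all protein-coding promoters did so. Over all 114 members, 6 were higher and 13 lower, beside 28% and 13.9% of all 75384 peaks tested; with TMM factors these were 6 and 30, beside 25.4% and 22.3%. Besides the 4 tissue forms, the only promoter called was that of Ndufaf3, an assembly factor of complex I, which was named after its value was seen. It fell from 2948, 2602 and 3137 to 2541, 2357 and 2281. The groups were separated, though by little, and the log2 change was -0.27 (SE 0.10, adjusted p = 0.036 from limma), a call lost without control replicate 1, Taf4a sKO replicate 2 or Taf4a sKO replicate 3 and in limma without trend and robust moderation, with an adjusted p of up to 0.17.

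The median log2 change of the 74 promoter peaks was 0.03, beside 0.06 over all protein-coding promoter peaks and 0.11 over all peaks. The middle 50% of them lay between -0.05 and 0.11. By complex the median was 0.02 for the 37 promoters of complex I, 0.05 for the 2 of complex II, -0.02 for the 6 of complex III, 0.07 for the 14 of complex IV and 0.07 for the 15 of complex V. These values depend on the scaling: with TMM factors, which moved the median of all peaks to -0.01, the median of the members was -0.08, and 3 promoters were higher and 14 lower, against 9.91% and 22.6% of all protein-coding promoters. Control replicate 3 also weighed on the count, since without it 16 member promoters were higher and 3 lower, and 33.4% of all protein-coding promoters were called.

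**Figure D2:**
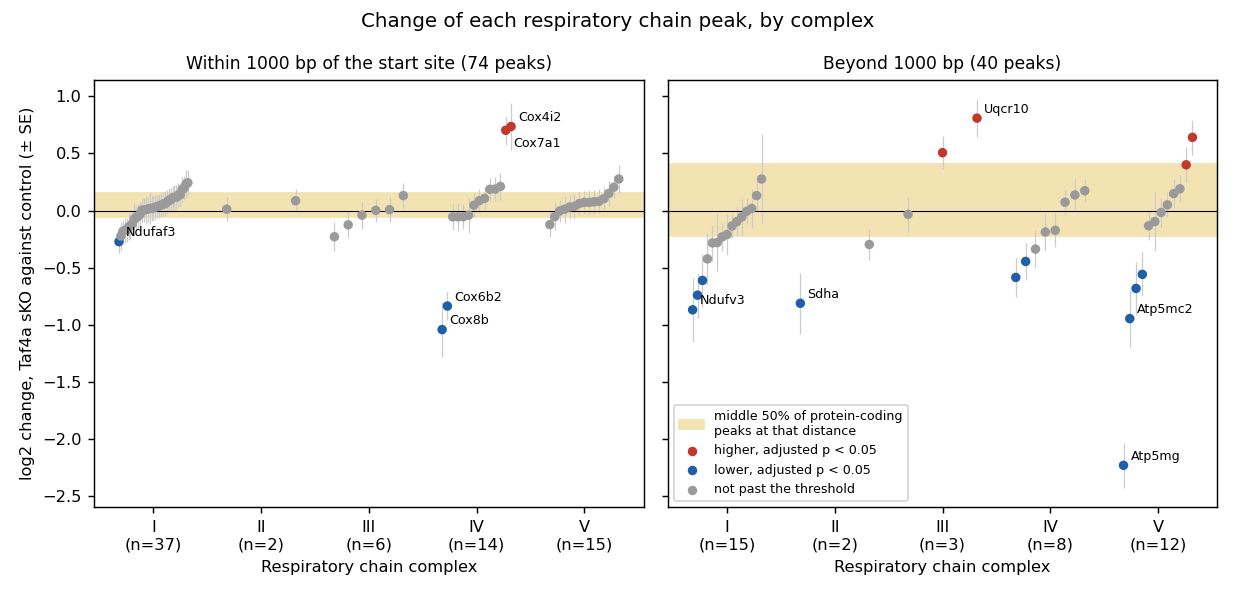
Log2 change of each of the 114 respiratory chain peaks (y axis, with standard errors) by complex, for 74 peaks within 1000 bp of the start site (left) and 40 beyond (right); the band covers the middle 50% of all protein-coding peaks at that distance. On the left only 4 complex IV peaks and Ndufaf3 are coloured as called, and on the right 10 peaks are coloured as lower and 4 as higher.

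As a share of the total signal, the member peaks took 0.303%, 0.299% and 0.293% in controls against 0.271%, 0.280% and 0.277% in Taf4a sKO, without overlap. Protein-coding promoters as a whole also took a smaller share in each Taf4a sKO library, 43.3%, 43.8% and 43.4% against 46.5%, 45.7% and 45.3%. Within the protein-coding promoter signal, the respiratory chain promoters held 0.558%, 0.560% and 0.553% in controls against 0.536%, 0.550% and 0.548% in Taf4a sKO.

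The catalytic subunits of complex I showed no called promoter. Ndufv1, Ndufv2 and Ndufs1 encode core subunits of the part that accepts electrons from NADH. Ndufv1 had values of 1648, 1489 and 1791 in controls against 1746, 1731 and 1752 in Taf4a sKO. The values overlapped, as did those of Ndufv2 (log2 change 0.11 ± 0.10, SE) and of Ndufs1, whose peak it shares with the start of Eef1b2 (0.04 ± 0.10, SE). Without control replicate 3 Ndufv2 passed (log2 change 0.21, adjusted p = 0.027 from limma). Ndufs7 and Ndufs8, which carry the electrons on towards ubiquinone, had log2 changes of 0.01 and 0.12. The start of Ndufs3 lies in a peak that the annotation gives to Kbtbd4, with values of 732, 715 and 828 against 652, 669 and 653 (log2 change -0.20, adjusted p = 0.17 from limma). These did not overlap, and the peak was called lower with TMM factors (log2 change -0.31, adjusted p = 0.0036 from limma). None of the 29 promoter peaks of complex I subunits was called, and with TMM factors 7 were lower, beside 22.6% of all protein-coding promoters. The 8 promoters of Ndufaf assembly factors ranged from -0.27 at Ndufaf3 to 0.19 at Ndufaf6.

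Complex II is made of 4 subunits and is the one complex encoded entirely in the nucleus. At Sdha, the flavoprotein that oxidizes succinate, the promoter values were 1225, 1174 and 1260 against 1268, 1317 and 1298; the peak also holds the start of Ccdc127. The Taf4a sKO values were all above the control values, by a log2 change of only 0.09 (adjusted p = 0.53 from limma). Sdhb, the iron-sulfur subunit, had 1944, 1770 and 2159 against 2129, 1868 and 1917 (log2 change 0.01, adjusted p = 0.94 from limma), with overlap. The membrane anchor Sdhd has no peak under its own name, but its start lies in a peak given to Timm8b, with a log2 change of -0.03 that was not called.

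In complex III, the Rieske iron-sulfur protein Uqcrfs1 had promoter values of 1598, 1534 and 1686 against 1528, 1651 and 1644 (log2 change 0.00, adjusted p = 0.99 from limma). The core proteins Uqcrc1 and Uqcrc2 had log2 changes of -0.04 and 0.01. All 3 overlapped between genotypes. The largest promoter difference in this complex, at the small subunit Uqcrb, whose peak also holds the start of Gm10767, was a log2 change of -0.23 without overlap that did not pass the test (adjusted p = 0.16 from limma) but did with TMM factors (adjusted p = 0.0056 from limma).

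In the ATP synthase none of the 15 promoter peaks was called. The catalytic beta subunit, Atp5f1b, had values of 2137, 1778 and 2230 against 2197, 2150 and 2122, with overlap (log2 change 0.08, adjusted p = 0.57 from limma). Atp5f1c (gamma), Atp5f1d (delta) and Atp5po, part of the stator that holds the head, had log2 changes of -0.00, 0.07 and 0.04. The only peak assigned to Atp5f1a, the alpha subunit, lies 6019 bp from its start, with its centre within 1000 bp of a start of Haus1. The log2 change of this peak was 0.05. Atp5mc1, Atp5mc2 and Atp5mc3 encode the same mature c subunit of the rotor, and their promoters had log2 changes of 0.15, 0.07 and 0.08, none past the threshold, though Atp5mc1 passed without control replicate 3 (log2 change 0.24, adjusted p = 0.025 from limma). Atp5mc1 had the highest accessibility per length of all member promoters, with 3273, 2935 and 3774 in controls against 4123, 3507 and 3424 in Taf4a sKO; of these, Taf4a sKO replicate 1 stood above the others. Among the other complex IV subunits, Cox5a (1959, 1820 and 2069 against 2286, 2138 and 2221) was separated between genotypes but not called (log2 change 0.19, adjusted p = 0.14 from limma), and passed without control replicate 3 (adjusted p = 0.017 from limma). Cox5b, which the deposited table lists as Cox5b-ps although its gene identifier is that of Cox5b, had a log2 change of 0.05 (adjusted p = 0.76 from limma). A second peak listed as Cox5b-ps, counted with complex IV by the rule, carries another identifier, which GENCODE vM21 names Gm11273, and had a log2 change of 0.07 (adjusted p = 0.64 from limma).

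Promoter accessibility ranged widely between the genes. Per kb of peak, the mean control value of the 74 promoters had a median of 1188, beside 1067 for all protein-coding promoter peaks. It ran from 128 at Cox4i2 and 253 at Cox8b to 2280 at Ndufv2 and 3544 at Atp5mc1. The medians by complex were 1251 for complex I, 1447 for II, 789 for III, 750 for IV and 1183 for V. The called promoters Cox4i2, Cox8b, Cox6b2 and Cox7a1 had 128, 253, 565 and 580 per kb in the control, each under the median of complex IV, whereas Ndufaf3 had 1681.

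**Figure D3:**
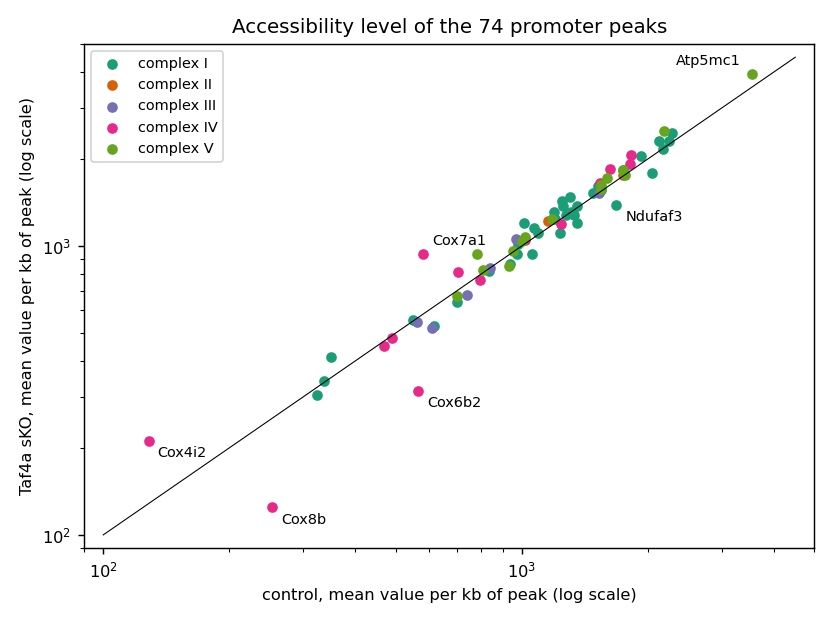
Mean normalized value per kb of peak in control (x axis) and Taf4a sKO (y axis) MuSCs for the 74 promoter peaks, on log scales, coloured by complex; the line marks equal levels. Most points follow the line over the range from 324 to 3544 per kb, and Cox4i2 and Cox7a1 lie above it and Cox8b, Cox6b2 and Ndufaf3 below.

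Away from the promoters more of the peaks were called. Of 40 member peaks more than 1000 bp from the start site, 4 were higher and 10 lower, beside 26% higher and 14% lower among the 11304 protein-coding peaks at such distances. The median log2 change of the 40 was -0.13, beside 0.08 for all of those peaks; with TMM factors the values were -0.25 and -0.04, and 3 member peaks were higher and 16 lower, beside 23.7% in each direction. In 4 of the 40 every Taf4a sKO value lay above every control value and in 13 below, where 30.2% and 19.3% of those protein-coding peaks did so. Medians below 0 at such distances were also found for proteasome subunits (-0.23; 3 of 25 peaks higher and 8 lower), for electron carriers and assembly factors (-0.16; 0 of 17 higher and 2 lower) and for cytosolic ribosomal proteins (-0.13; 7 of 39 higher and 9 lower), and medians above 0 for the mitochondrial ribosome (0.04; 4 of 22 higher and 3 lower), the tricarboxylic acid cycle (0.05; 0 of 3 higher and 1 lower), glycolysis (0.08; 3 of 14 higher and 3 lower) and biogenesis regulators (0.19; 2 of 11 higher and 1 lower). With TMM factors the medians of these last 4 lists were -0.07, -0.07, -0.04 and 0.08, so that only the regulators stayed above 0, and those of the 3 lists before them were -0.34, -0.28 and -0.24. The complex I peaks had a median of -0.21, with 0 of 15 higher and 3 lower. For complex II it was -0.55 (0 of 2 higher and 1 lower) and for complex III 0.51 (2 of 3 higher and 0 lower). Complex IV had -0.18 (0 of 8 higher and 2 lower) and complex V -0.06 (2 of 12 higher and 4 lower). Assignment to a respiratory chain gene at these distances rests on the deposited annotation alone. For some peaks another gene's start is closer. The centre of the Ndufs6 peak at 2656 bp, for example, lies within 1000 bp of a start of Mrpl36. Only protein-coding genes of GENCODE vM21 were used to place the peaks. By their centres, 6 of the 40 lay within 1000 bp of a coding start, 5 in exons and 8 in introns. The other 21 lay outside protein-coding genes, where non-coding genes were not looked up. Whether the 40 peaks act on the gene they are assigned to was not tested.

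The peak with the largest change lies 2666 bp from the start of Atp5mg (subunit g of the ATP synthase), in a UTR of the neighbouring ubiquitin ligase gene Ube4a (chr9:44923199-44923616). It fell from 222, 204 and 248 to 60, 48 and 36. The genotypes were far apart, with a log2 change of -2.23 (SE 0.20, adjusted p = 1.4e-08 from limma). At the Atp5mg promoter itself the values were 1468, 1354 and 1527 against 1492, 1587 and 1457 (log2 change 0.06, adjusted p = 0.67 from limma). A further peak, 5782 bp from that start and close to another annotated Atp5mg transcript start (chr9:44914648-44915271), rose from 186, 193 and 237 to 284, 322 and 354 (log2 change 0.64, SE 0.15, adjusted p = 0.0014 from limma). So 3 peaks assigned to the same gene had 3 different outcomes. With a mean above 10 and a log2 ratio of group means beyond 1 (pseudocount 1 added to each mean, not a model-based fold change), only this Ube4a peak and the Cox8b promoter peak were lost and no member was gained, where 7.03% of all peaks were gained and 5.36% lost (0.805% and 0.905% of protein-coding promoters, 5.34% and 4.59% of protein-coding peaks beyond 1000 bp). The Cox8b peak no longer met them without Taf4a sKO replicate 2 or 3, with 1 lost member, nor without control replicate 2, where the intronic Atp5mc2 peak met them in its place; with TMM factors 3 members were lost.

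Of the other falls, the one in an intron of Atp5mc2 (chr15:102665634-102665795) had 58, 54 and 71 against 32, 30 and 31, a log2 change of -0.94 (SE 0.25, adjusted p = 0.0034 from limma), with a clear gap between genotypes. A pair of peaks assigned to Ndufb7, an accessory subunit of complex I, lies in an intron of Tecr, a gene of very long chain fatty acid synthesis. The farther of them (chr8:83575970-83576346) fell from 88, 117 and 113 to 60, 67 and 61 (log2 change -0.74, adjusted p = 0.0041 from limma), and the nearer from 71.3 ± 8.7 to 46.7 ± 8.5 (SD, n = 3; adjusted p = 0.035 from limma), a call lost without control replicate 1 or 2 or Taf4a sKO replicate 3, with an adjusted p of up to 0.19. At Ndufv3, a peak centred within 1000 bp of a second annotated start of the gene (chr17:31529493-31529661) fell from 47, 40 and 49 to 19, 29 and 26 (log2 change -0.87, adjusted p = 0.016 from limma). A peak in an intron of Sdha (chr13:74341182-74341371) fell from 54, 51 and 79 to 25, 36 and 43 (log2 change -0.81, adjusted p = 0.017 from limma). All of these were separated between genotypes, but the calls at Ndufv3 (adjusted p = 0.073 from limma) and Sdha were lost without Taf4a sKO replicate 1, and that at Sdha also without control replicate 3, with an adjusted p of up to 0.092. The remaining falls, named after their values were seen, were at Atp5f1d in an intron of Cbarp (log2 change -0.68), at Cox5a (-0.58) and at Atp5mpl (-0.56); of these only the Cox5a call held in every alternative.

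The rises beyond the promoters were fewer. Uqcr10, a small subunit of complex III, has a peak outside protein-coding genes, 6508 bp from its start (chr11:4697544-4698124), with 107, 131 and 150 against 235, 199 and 244. It was higher in each Taf4a sKO library, by a log2 change of 0.81 (SE 0.17, adjusted p = 4.2e-04 from limma). The peak assigned to Uqcr11 lies in a coding exon of Tcf3, which encodes an E-protein partner of the myogenic factors (chr10:80412825-80413736), and rose from 211, 201 and 204 to 323, 281 and 274 (log2 change 0.51, SE 0.14, adjusted p = 0.0063 from limma). At Atp5po, a peak 4957 bp from the start had 229, 244 and 347 against 337, 358 and 370, with overlap, and its call (adjusted p = 0.041 from limma) was lost under 8 of 13 alternatives, among them TMM factors (adjusted p = 0.073 from limma), quantile normalization and every left-out library but control replicate 3 (adjusted p of up to 0.19 from limma). None of the 3 peaks of Ndufa4l2, a gene induced at low oxygen, passed the test, and all of them were called lower with TMM factors. At the one nearest its start the values were 204, 176 and 238 against 179, 162 and 163 (log2 change -0.28, adjusted p = 0.16 from limma; with TMM factors adjusted p = 0.018 from limma).

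**Figure D4:**
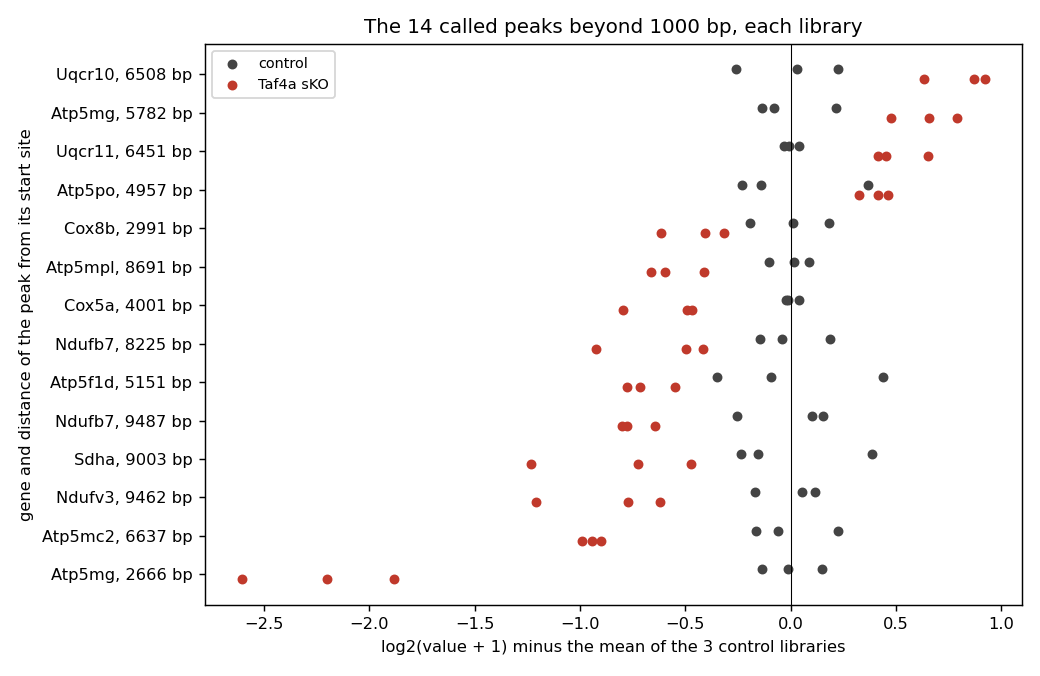
Each library's log2(value + 1) minus the control mean (x axis) for the 14 called member peaks beyond 1000 bp, with the gene and distance on the y axis, control in grey and Taf4a sKO in red. The Atp5mg peak at 2666 bp stands apart with a log2 change of -2.23, and only at Atp5po do the genotypes overlap.

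Respiratory chain genes without a peak of their own were looked up in GENCODE vM21, which holds 94 protein-coding genes that match the rule. Of the 15 without a peak, 12 have one within 1000 bp of their start that carries a neighbour's name, among them Uqcrh (Lrrc41), Uqcrq (Gdf9), Ndufb9 (Tatdn1) and Ndufa7 (Rps28). None of these 12 peaks was called, and 1, that of Ndufs3, was called with TMM factors. Conversely, 17 of the 74 member promoter peaks also hold the start of another coding gene, such as Gabpa in the peak of Atp5pf, so that accessibility there cannot be told apart between the neighbours. Gabpa encodes a subunit of an ETS-family regulator of respiratory genes, and the shared peak had 3777, 3515 and 4149 against 4536, 4338 and 4275, separated but not called (log2 change 0.20, adjusted p = 0.10 from limma), and called with TMM factors (log2 change 0.09, adjusted p = 0.045 from limma).

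The member promoters were searched for motifs, as a description with no test of the shares. RefSeq windows were found for 64 of the 74 member genes with a promoter peak and for 8872 of 11827 protein-coding genes with one, so that the shares describe only genes with a window. The NRF1 site, GCGC followed by any base and TGCGC, was in 26.6% of the member windows, in 10.2% of the windows of protein-coding genes with a promoter peak and in 4.6% of all 32851 RefSeq promoter windows. NRF1 is a known regulator of nuclear respiratory genes. CCAAT was in 43.8% of member windows, against 37.9% and 37.4%. GGGCGG was in 45.3% of member windows, against 69.3% for protein-coding genes with a promoter peak and 35.7% of all RefSeq windows. The median GC content of the windows was 57.8% for members against 62.0% for protein-coding genes with a promoter peak. CCGGAAG was in 21.9% of member windows, against 17.3% and 8.86% in the same order. The long YY1 site, AAGATGG followed by CGGC, was in 6.25% against 1.6% and 0.633%. Its core AAGATGG, which it contains, was in 14.1% against 6.83% and 6.34%. All motifs were searched on both strands. TATAAA was in 9.38% of member windows, against 6.62% for protein-coding genes with a promoter peak and 13.6% of all RefSeq windows.

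**Figure D5:**
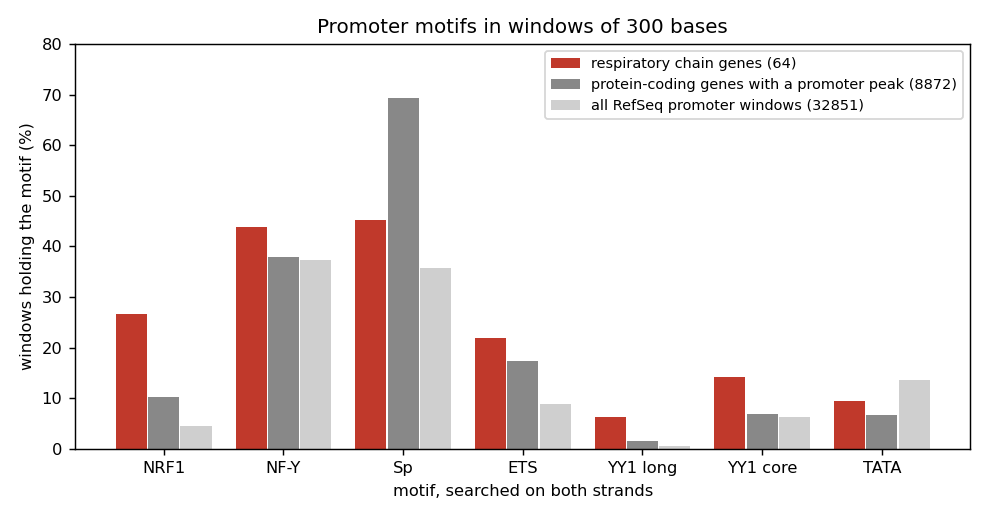
Share of promoter windows (y axis, percent, from 0) that hold each motif on either strand, for 64 respiratory chain genes (red), 8872 protein-coding genes with a promoter peak (grey) and all 32851 RefSeq windows (light grey). The red bar stands well above the grey one for NRF1 (26.6% against 10.2%) and below it for Sp (45.3% against 69.3%).

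The median log2 change was 0.01 for the 17 members with an NRF1 site and 0.03 for those without, and 0.06 for the 28 with CCAAT and 0.01 for those without. No test of these differences was made. By complex, NRF1 sites were found in 8 of 34 complex I windows, 1 of 11 complex IV windows and 6 of 13 complex V windows.

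Other mitochondrial and housekeeping lists were counted in the same way, beside the 10% higher and 5.67% lower of all protein-coding promoters. Of 40 promoter peaks of electron carriers and assembly factors outside the naming rule, 1 was higher and 3 were lower. The lower ones were Coq2, an enzyme of coenzyme Q synthesis (165, 176 and 230 against 119, 108 and 119; log2 change -0.70, adjusted p = 0.0018 from limma), Sco2, a copper chaperone of complex IV (-0.30), and Uqcc3, an assembly factor of complex III (-0.33). Cox16, a complex IV assembly factor, was higher (log2 change 0.38, adjusted p = 0.010 from limma). None of 16 promoter peaks of mitochondrial biogenesis regulators was called. Beyond 1000 bp, peaks assigned to Nfe2l2 and Ppargc1a, which encodes the coactivator PGC-1alpha, rose and one assigned to Nfe2l1 fell; at Ppargc1a the values were 61, 60 and 86 against 97, 107 and 124 (log2 change 0.67, adjusted p = 0.0099 from limma). Of the promoter peaks of the tricarboxylic acid cycle 1 of 11 was higher (Suclg1), of glycolysis 1 of 13 was higher (Eno2) and 1 lower (Pgk1), of the mitochondrial ribosome 4 of 55 were lower, of cytosolic ribosomal proteins 1 of 65 was higher, and of the proteasome 1 of 38 was higher and 1 lower. The medians of these lists, from -0.01 for glycolysis to 0.09 for cytosolic ribosomal proteins, enclose the 0.03 of the respiratory chain promoters. With TMM factors, beside 22.6% of all protein-coding promoters, the promoters called lower were 21 of 55 for the mitochondrial ribosome, 10 of 40 for electron carriers and assembly factors, 5 of 13 for glycolysis, 5 of 38 for the proteasome, 5 of 65 for cytosolic ribosomal proteins, 2 of 16 for biogenesis regulators and 1 of 11 for the tricarboxylic acid cycle, beside 14 of 74 for the respiratory chain. Whether the lists differ was not tested.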

How the data were processed

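Per the labels and the study's methods, the authors trimmed reads with Trimmomatic 0.39, aligned them to mm10 with STAR 2.7.11b, removed duplicate (Picard 3.1.1), spliced, multi-mapping, ribosomal and mitochondrial reads, called peaks with MACS, unified them and counted reads with featureCounts; a Tn5 shift is not described. The deposited values are a score: the authors scaled these counts for depth and rounded them, so they are not raw counts, and count models were not used. No per-sample column was left unused.

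From these values, limma 3.58.1 (R 4.3.3, mean-variance trend and robust moderation) was run on log2(value + 1) over the 75384 peaks with a mean above 10, with Benjamini-Hochberg adjustment over all of them and a threshold of 0.05; fold changes are on this log2(value + 1) scale, which understates low peaks. All 114 members passed the filter. Single values were compared by exact permutation tests (SciPy 1.17.1). Peaks within 1000 bp of the deposited start site were called promoter peaks. Gene features came from GENCODE vM21 (all 82 identifiers had the same coordinates) and sequences from RefSeq GRCm38.p6.

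The members, lists and tests were chosen with earlier results of these data known. Genes named in the text are the catalytic or core subunits, the isoform groups, the 5 peaks with the smallest p in each direction without overlap, gained or lost peaks and the largest called change per complex; all other genes were named after their values were seen. Some items are not reported here. Each genotype had 3 libraries, reported as biological replicates by the study, which limits the precision. The replicate numbers were not used as a block: the correlations of the deviations of same-numbered libraries were 0.11, -0.12 and -0.03. Alternatives were TMM factors, quantile normalization, other pseudocounts and filters, limma without trend and robust moderation, other promoter distances, and each replicate left out.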

Additional observations from a re-analysis of the deposited data

How the results depend on the processing

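Of the 19 called respiratory chain peaks, 10 stayed past the threshold under all 13 alternative fits, among them the promoters of Cox7a1, Cox8b, Cox6b2 and Cox4i2. The Atp5mc2 peak at 6637 bp did so under the 12 in which it was tested, since its mean is under 50, and 8 fell below the threshold under at least 1. The counts depend on the scaling. With TMM factors 30 member peaks were lower, 14 of them at promoters, and with quantile normalization 51 and 30. Calls rose beyond the members too. Of all 75384 peaks tested, 19115 were higher and 16812 lower with TMM factors, and 18700 and 18897 after quantile normalization. Among all protein-coding promoters, 32.47% and 44.05% were called in either direction, in the same order. The median log2 change of promoter peaks became -0.078 with TMM factors and -0.12 with quantile normalization over all complexes, -0.089 and -0.14 for complex I, -0.063 and -0.10 for complex II, -0.13 and -0.22 for complex III, -0.046 and -0.091 for complex IV, and -0.041 and -0.088 for complex V. With quantile normalization Ndufs7 (-0.14), Sdhb (-0.12) and Uqcrc2 (-0.17) changed sign and were called. The promoters of Uqcrc1 (-0.259), Atp5f1c (-0.135) and Cox6a1 (-0.237) and the Ndufa4l2 peak nearest its start (-0.429) were also called lower there. The cause of these moves was not tested. With promoters taken to 3000 bp, 5 were lower. At a threshold of 1.5-fold, 4 members were gained and 9 lost, and with a pseudocount of 10 there was 1 lost member. For these promoter, threshold and pseudocount settings no share of all peaks is given here. These counts are therefore not read as a result about the members.

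Leaving out 1 library at a time gave 5 to 22 higher and 8 to 12 lower members, 2 to 16 higher and 2 to 4 lower promoters, and 1 to 2 lost members. The highest counts of higher members and promoters came without control replicate 3 and the lowest count of lower members without Taf4a sKO replicate 3. Over all 75359 to 75388 peaks tested, the same fits gave 16024 to 28502 higher and 8565 to 10038 lower. They called 10.6% to 33.4% of protein-coding promoters. The most higher peaks and the largest share again came without control replicate 3. The medians ranged from -0.03 to 0.10 over all complexes, -0.03 to 0.09 for complex I, 0.00 to 0.10 for II, -0.06 to 0.02 for III, 0.01 to 0.11 for IV and -0.01 to 0.13 for V. With the replicate number as a block, 6 members were higher and 13 lower, of which 2 and 3 at promoters. In that fit no call of a named peak changed. The labels do not say whether the replicate numbers pair the samples. Read totals per library are stated by the study but cannot be recovered from the rounded values, and no counting interval was computed.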
